A study of Mus musculus with 58 samples.

Results

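The genes described here are 10 genes of iron storage, uptake and export, followed in microglia, the resident macrophages of the brain. They are Fth1, Ftl1, Ncoa4, Hmox1, Slc11a1, Slc11a2, Slc40a1, Tfrc, Hfe and Ireb2. They were taken by symbol from the 3 deposited tables of raw counts, which list 24940 genes in an age series and 10277 and 10589 genes in 2 sets of antisense oligonucleotide (ASO) libraries. Fth1 and Ftl1 were chosen by their counts with a Tfeb ASO, where both were higher than with the control ASO, so that contrast is given below as values without a test. All 10 genes are listed in each table and passed the filter on low counts in each.

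Cells store iron inside ferritin, a hollow shell built from heavy chains (Fth1), which oxidise iron, and light chains (Ftl1), which help the core to form. NCOA4 carries ferritin to the lysosome, where the shell is broken down and iron is released. Microglia and other macrophages also take in iron with transferrin or with engulfed heme, and both routes pass through acid endosomes or lysosomes. Iron regulatory proteins bind hairpins in the messenger RNAs when iron is scarce, which blocks translation of ferritin and stabilises the transferrin receptor message. MITF, TFEB and TFE3 are related transcription factors known for switching on lysosome genes.

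The samples were C57BL/6 mice, either wild-type (WT) or SgshKO. In the latter Sgsh is knocked out, whose product, sulfamidase, takes part in breaking down heparan sulfate in lysosomes. PolyA RNA was sequenced from forebrain cells sorted as live single cells with CD11b, low CD45 and CX3CR1. The age series held 3 WT and 4 SgshKO libraries at 3 weeks, 2 and 2 at 4 months, and 4 and 7 at 8 months. WT mice received 1 injection into the cerebral ventricles of PBS, of a control ASO labelled ntc, or of an ASO against Mitf, Tfeb or Tfe3, with 4 libraries in each of these 5 groups. SgshKO mice received ntc (8 libraries) or the Mitf and Tfe3 ASOs together (8 libraries). Cells of the ASO mice were collected 14 days after the injection. An ASO is a short synthetic strand that lowers its target RNA, and by this route any brain cell can take it up, not microglia alone. The age of the ASO mice, the sex of all mice, and whether each library came from 1 animal or a pool are not in the labels, so the p-values measure the spread between libraries.

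Iron responsive elements, the hairpins that iron regulatory proteins are known to bind, are printed first for those of the 10 genes in which a strict search found them. In the UTRs of GENCODE M21 (GRCm38), a search for a loop reading CAGTGN on 5 paired bases, below them an unpaired C and at least 3 of 5 further pairs, found such a hairpin in 4 of the 10 genes. It was found in 49 of 22527 protein-coding genes (0.218%), in the 5′ UTR of 10 and the 3′ UTR of 39. The capitals mark the loop, and each sequence is on the strand of its gene.
Fth1, 5′ UTR, chr19:9982732-9982760, plus strand: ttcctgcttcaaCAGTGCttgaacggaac
Ftl1, 5′ UTR, chr7:45459779-45459807, minus strand: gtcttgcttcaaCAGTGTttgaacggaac
Slc40a1, 5′ UTR, chr1:45925465-45925493, minus strand: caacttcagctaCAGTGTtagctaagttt
Tfrc, 3′ UTR, chr16:32631219-32631247, plus strand: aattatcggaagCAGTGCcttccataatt
Tfrc, 3′ UTR, chr16:32631598-32631626, plus strand: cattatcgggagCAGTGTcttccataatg
Tfrc, 3′ UTR, chr16:32631663-32631691, plus strand: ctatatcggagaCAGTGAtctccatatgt
Tfrc, 3′ UTR, chr16:32631710-32631738, plus strand: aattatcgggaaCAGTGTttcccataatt
The Fth1 hairpin lies in 4 of its 5 annotated coding transcripts and the Ftl1 hairpin in 2 of 3. The Slc40a1 hairpin lies in 1 of 4 and the Tfrc hairpins, all in exon 19, in 1 of 3. The pattern was not found in the UTRs of the other 6 genes, which says only that these letters are not there. A form of the Slc11a2 message is known for such an element in its 3′ UTR, and this strict pattern did not find it.

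In mm10, the build of the age table, the ferritin genes lie at chr19:9982646-9985111 on the plus strand (Fth1) and chr7:45457944-45459886 on the minus strand (Ftl1). Ncoa4 lies at chr14:32165586-32179855, Hmox1 at chr8:75093618-75100593, Tfrc at chr16:32608896-32632794, Slc11a1 at chr1:74375203-74386051 and Ireb2 at chr9:54863755-54912534, all on the plus strand. Slc11a2 lies at chr15:100392658-100423055, Slc40a1 at chr1:45908070-45925594 and Hfe at chr13:23702034-23710854, all on the minus strand. The 10 genes thus lie on 9 chromosomes, with Slc11a1 and Slc40a1 both on chromosome 1.

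Depth and identity were checked for all 58 libraries. Total counts were 8191508 to 27106584 per library of the age series. They were 14372015 to 30378870 with ASOs in WT and 12517838 to 30431437 with ASOs in SgshKO. Levels are CPM, the share of a library's counts scaled by TMM factors, unless TPM, which is per transcript length, is named. The transcripts named by the ASOs were low where the labels place them. Mitf was 1.01 to 2.15 CPM with its ASO against 34.5 to 50.4 with ntc, Tfeb 4.59 to 6.91 against 52.6 to 58.1, and Tfe3 34.9 to 40.5 against 192 to 202. In SgshKO mice the combination left Mitf at 7.51 to 23.2 CPM against 60.7 to 82.1 with ntc, and Tfe3 at 75.0 to 87.1 against 137 to 194. Sgsh itself was still counted in SgshKO libraries, at 14.9 to 34.7 CPM in the age series against 20.3 to 59.2 in WT, so its level does not check the genotype labels. All 8 microglial markers had counts in each group, with a summed level of 45891 to 69178 CPM per ASO library. In the age series this sum was lower in SgshKO at each age without overlap. It was 47676 to 52054 CPM against 53549.5 to 54541 in WT at 3 weeks, 30587 and 35363.5 against 44283 and 48962 at 4 months, and 35129 to 39206 against 41489 to 48760.5 at 8 months. Its part in the differences below was not tested. In the age series, Xist exceeded Ddx3y in all 7 libraries of 3 weeks, in 1 of 2 of each genotype at 4 months, in 0 of 4 WT and in 3 of 7 SgshKO libraries at 8 months. These sex-linked transcripts thus differed between ages, and between genotypes at 8 months. Their part was tested only where a covariate for them is named.

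The summed level of 8 neutrophil markers moved with genotype at the later ages. It was 1.15 to 7.68 CPM in the 9 WT libraries and 1.74 to 30.8 in SgshKO at 3 weeks, but 3014 and 14826 in SgshKO at 4 months and 435 to 5834, with a median of 755, at 8 months. Monocyte markers, 5 in number, summed to 372 and 1456 CPM in SgshKO at 4 months and to 66.9 to 481 at 8 months, against 7.04 to 25.1 in all WT libraries. Border macrophage markers, 6 in number, summed to 54.8 to 75.8 CPM in WT at 3 weeks against 82.2 to 109 in SgshKO. At 4 and 8 months SgshKO libraries held 56.3 to 121 CPM of them and WT libraries 9.34 to 32.1, so the genotypes were apart at each age. Erythrocyte markers, 6 in number, overlapped between the genotypes at each age, at 69.8 to 1115 CPM at 3 weeks and 0.45 to 57.5 at the later ages. Endothelial markers, 6 in number, were lower in SgshKO at each age without overlap. At 3 weeks they summed to 26.7 to 31.5 CPM against 52.4 to 66.0 in WT. Neuron markers, 5 in number, summed to 16.2 to 25.6 CPM in SgshKO at 3 weeks against 10.4 to 11.6 in WT. At 4 months they summed to 17.3 and 27.5 CPM against 9.25 and 16.4, and at 8 months the genotypes overlapped. Astrocyte markers, also 5, summed to 187 to 248 CPM in SgshKO at 3 weeks against 143 to 160. At 4 months the astrocyte sum was lower in SgshKO, at 131 and 187 CPM against 195 and 211. At 8 months it ran from 170 to 286 CPM against 284 to 401, which overlap. Oligodendrocyte markers, 7 in number, were apart at 4 months only, at 86.7 and 86.8 CPM in SgshKO against 74.7 and 75.8 in WT. In such bulk samples, fewer cells of a type and less RNA per cell cannot be told apart. The part of these other cells in the differences below was not tested except where a value is given.

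Per length, the ferritin chains stood far above the other iron genes in WT microglia. At 3 weeks the mean was 729 ± 31.4 TPM for Fth1 and 419.6 ± 24.1 for Ftl1 (SD, n = 3). Next came Slc11a1 at 189 ± 6.64 and Slc40a1 at 128 ± 4.06 TPM, then Hfe at 77.7 ± 3.03, Ireb2 at 41.9 ± 1.87 and Hmox1 at 28.7 ± 0.386. Slc11a2 at 18.3 ± 1.01, Tfrc at 9.47 ± 1.29 and Ncoa4 at 6.85 ± 0.567 TPM were lowest, and no neighbours in this order overlapped within 1 SD. These levels hold for the age table. Ncoa4 was at 5.12 to 18.9 CPM there and at 252 to 386 CPM in the ASO tables. The source of this gap was not tested, and no level is compared between tables.

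SgshKO microglia held more ferritin transcript than WT at each age. In the edgeR quasi-likelihood test with Benjamini-Hochberg adjustment over 14309 genes, 4 of the 10 iron genes were called higher and 0 lower at 3 weeks, 4 and 1 at 4 months, and 5 and 2 at 8 months. Of all genes, 5.31% were called higher and 3.72% lower at 3 weeks, 10.3% and 9.26% at 4 months, and 21.6% and 18.9% at 8 months. The ranges of the genotypes were apart for 7 iron genes at 3 weeks, 9 at 4 months and 6 at 8 months, and for 22.5%, 58.1% and 25.2% of all genes at these ages. On the authors' TPM scale the calls over all genes were 605 higher of 1378 at 3 weeks and 2241 higher of 6361 at 8 months, where the counts gave 760 of 1292 and 3090 of 5793. The median log2 difference of the 10 genes was 0.08, 0.36 and 0.06 at the 3 ages, against -0.02, 0.02 and 0.02 over all genes, since they moved in opposite directions.

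Fth1, the heavy chain, measured 444, 468 and 419 CPM in WT and 698, 765, 873 and 799.8 in SgshKO at 3 weeks. At 4 months it measured 665 and 729 CPM in WT and 2005 and 1831 in SgshKO. At 8 months it measured 482, 475, 414 and 545 CPM in WT and ran from 1889.6 over a median of 2069.6 to 2296 in SgshKO. Every SgshKO library lay above every WT library of its age. The fitted log2 differences were 0.82 ± 0.09 at 3 weeks (SE; adjusted p = 8.74e-07), 1.46 ± 0.12 at 4 months (adjusted p = 5.03e-09) and 2.12 ± 0.08 at 8 months (adjusted p = 5.94e-16). As ratios these are 1.77-fold, 2.75-fold and 4.36-fold.

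**Figure D1:**
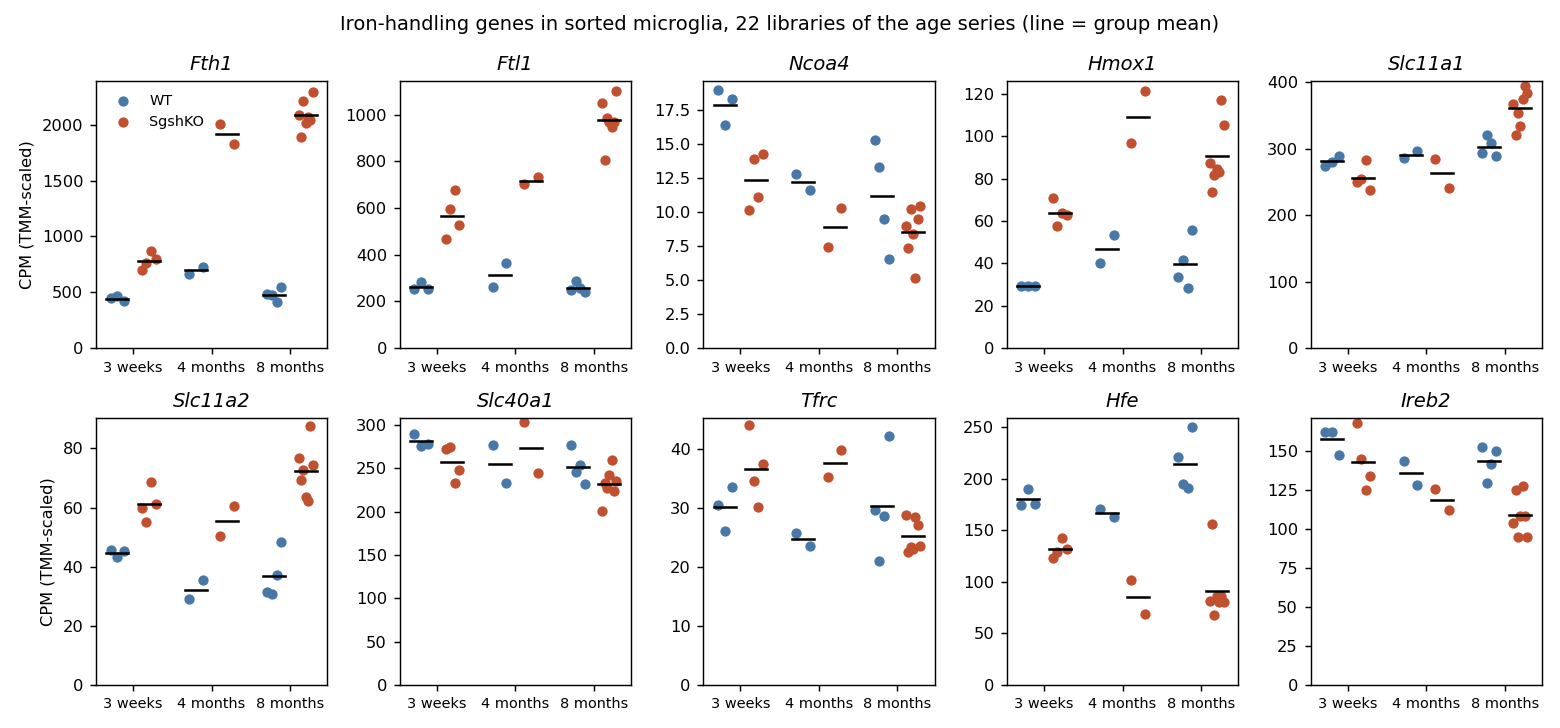
CPM of the 10 iron genes in each of the 22 libraries of the age series, with WT in blue, SgshKO in red and the group mean as a line. Fth1 and Ftl1 of SgshKO lie above WT at each age, from 698 to 873 against 419 to 468 CPM for Fth1 at 3 weeks, while Hfe of SgshKO lies below.

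Ftl1, the light chain, measured 253, 284 and 252 CPM in WT and 466, 596, 676 and 529 in SgshKO at 3 weeks. At 4 months the values were 262 and 366 CPM in WT and 701 and 732 in SgshKO. At 8 months they were 247, 288, 257 and 239 CPM in WT and 807 to 1101 with a median of 967 in SgshKO. The groups again did not overlap at any age. The log2 differences were 1.11 ± 0.12 (adjusted p = 7.03e-07), 1.19 ± 0.16 (adjusted p = 6.51e-06) and 1.92 ± 0.11 (SE; adjusted p = 4.63e-13). Ftl1 shares 50.9% of its 50-base stretches with 15 other annotated genes, 8 of them pseudogenes, so how the authors placed shared reads could move its level.

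The genotype difference of both ferritin chains was larger at 8 months than at 3 weeks. For Fth1 the difference at 8 months exceeded that at 3 weeks by 1.30 ± 0.12 on the log2 scale (SE; adjusted p = 6.81e-08), and for Ftl1 by 0.81 ± 0.15 (adjusted p = 0.00112). Fth1 also grew between 3 weeks and 4 months, by 0.64 ± 0.15 (adjusted p = 0.0199), and between 4 and 8 months, by 0.66 ± 0.14 (adjusted p = 0.0311). The steps through 4 months rest on few libraries. The first lost its call without WT 3-week replicate 2 or without any 1 of the 4 libraries of 4 months (0.53 to 0.72, adjusted p = 0.0505 to 0.126). The second lost it without either WT 4-month library, SgshKO 4-month replicate 2 or WT 8-month replicate 2 (0.57 to 0.71, adjusted p = 0.0511 to 0.284). It was also lost on the TPM scale with a pseudocount of 0.1 (0.61, adjusted p = 0.0603) or unfiltered (0.61, adjusted p = 0.0741). With the neutrophil covariate neither step was called (0.69, adjusted p = 1, and 0.65, adjusted p = 0.0852). Ftl1 did not pass edgeR in either of these steps (0.08 ± 0.20, adjusted p = 0.901, and 0.73 ± 0.18, adjusted p = 0.093), though the second was called without SgshKO 8-month replicate 2 (0.76, adjusted p = 0.0451), with no filter on low counts (0.71, adjusted p = 0.0295) and by DESeq2 (0.71, adjusted p = 0.0152). From 3 weeks to 4 months 1.63% of all genes were called for a rise of the difference and 0.895% for a fall, from 3 weeks to 8 months 5.98% and 3.26%, and from 4 to 8 months 0.259% and 0.133%.

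The neutrophil sum differed more than 10 times between SgshKO libraries of 8 months. In the one with the lowest sum (replicate 6, 435 CPM), Fth1 was 2045 and Ftl1 967 CPM. In the library with the highest sum (replicate 3, 5834 CPM), Fth1 was 2213 and Ftl1 984 CPM. With the log2 neutrophil sum as a covariate, an alternative chosen after seeing the data, the Fth1 difference was 1.51 at 4 months (adjusted p = 0.00255) and 2.16 at 8 months (adjusted p = 9.58e-08). At these ages the covariate separates the genotypes almost fully, so it leaves little to test with, and 160 and 848 genes were called with it in place of 2794 and 5793.

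**Figure D2:**
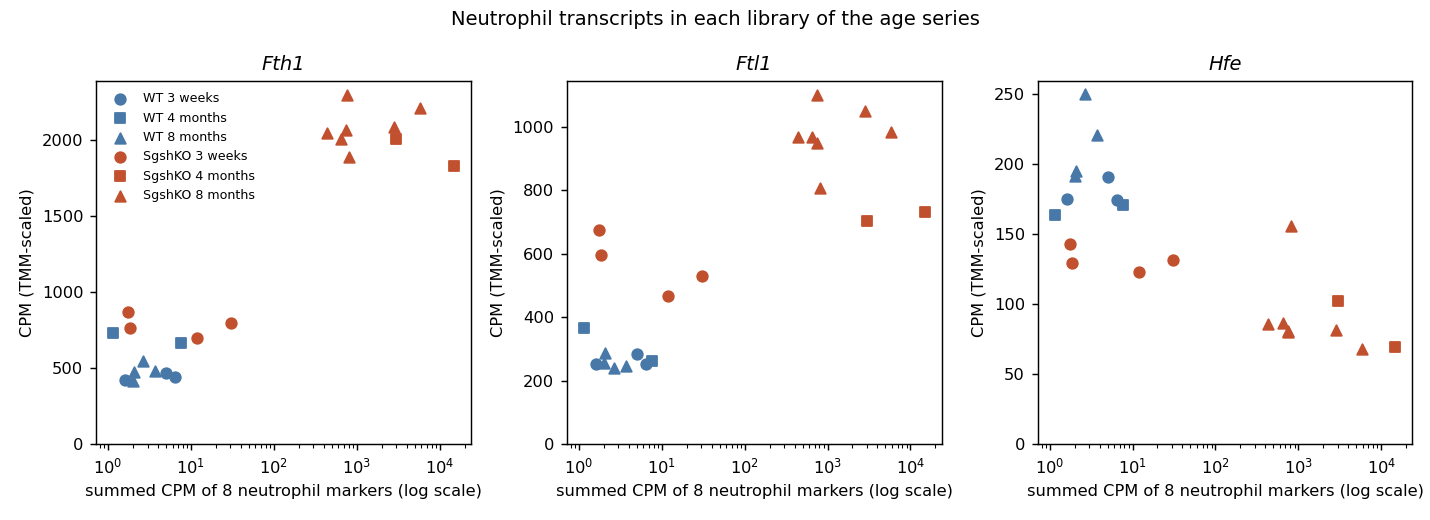
CPM of Fth1, Ftl1 and Hfe against the summed CPM of 8 neutrophil markers, on a log axis, in the 22 libraries of the age series. SgshKO libraries of 4 and 8 months, from 435 to 14826 CPM of neutrophil transcripts, stand apart from WT, at or under 7.68 CPM, on both axes.

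Hmox1 encodes heme oxygenase 1, which opens the heme ring and frees its iron. It measured 29.1, 29.3 and 29.3 CPM in WT and 70.8, 57.7, 63.8 and 62.8 in SgshKO at 3 weeks. At 4 months it measured 40.0 and 53.2 CPM in WT and 96.7 and 121 in SgshKO, and at 8 months 33.8, 41.7, 28.3 and 55.5 in WT and 73.5 to 117, median 84.6, in SgshKO. No SgshKO value fell into the WT range of its age. The log2 differences were 1.13 ± 0.18 (adjusted p = 9.66e-05), 1.22 ± 0.23 (adjusted p = 0.000409) and 1.19 ± 0.15 (SE; adjusted p = 4.69e-07). The genotype difference of Hmox1 was not called as different between any 2 ages (8 months minus 3 weeks 0.06 ± 0.22, adjusted p = 0.918). With the neutrophil covariate the difference at 4 months was 1.45 without a call (adjusted p = 0.264).

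Slc11a2 encodes DMT1, which moves ferrous iron out of endosomes. It measured 45.6, 43.3 and 45.3 CPM in WT and 59.9, 55.0, 68.7 and 61.2 in SgshKO at 3 weeks. It measured 29.0 and 35.4 against 50.2 and 60.6 CPM at 4 months, and 31.4, 30.6, 37.3 and 48.5 against 62.2 to 87.5, median 72.7, at 8 months. SgshKO lay above WT in every library of the same age. The log2 differences were 0.45 ± 0.14 (adjusted p = 0.0407), 0.78 ± 0.19 (adjusted p = 0.00376) and 0.97 ± 0.12 (SE; adjusted p = 2.76e-07). The difference at 8 months exceeded that at 3 weeks by 0.52 without a call in edgeR. This excess was called by DESeq2 (0.53, adjusted p = 0.0463), with no filter on low counts (0.52, adjusted p = 0.0472) and without WT 8-month replicate 4 (0.66, adjusted p = 0.00931). On the TPM scale, with a pseudocount of 1, the differences at the 3 ages were smaller. They were 0.28 without a call at 3 weeks (adjusted p = 0.0831) and 0.39 and 0.54, both called, at 4 and 8 months. The call at 3 weeks was also lost with RLE factors (0.44, adjusted p = 0.0519). It was lost without any 1 of the WT 3-week libraries, without replicate 1, 3 or 4 of SgshKO at that age, or without replicate 2 of SgshKO at 8 months (0.39 to 0.47, adjusted p = 0.0537 to 0.145), and the one at 4 months without WT replicate 1 or SgshKO replicate 2 (0.59 to 0.66, adjusted p = 0.0645 to 0.0999) or with the neutrophil covariate (0.84, adjusted p = 0.575).

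Slc11a1 encodes NRAMP1, the related metal pump of the phagosome, and Slc40a1 encodes ferroportin, the exporter of iron. Slc11a1 measured 293, 321, 309 and 289.7 CPM in WT and 320.1 to 394, median 367, in SgshKO at 8 months, where the groups overlapped between 320.1 and 321 CPM only (0.25 ± 0.07, adjusted p = 0.00474). At the earlier ages its differences were -0.13 ± 0.08 (adjusted p = 0.429) and -0.15 ± 0.11 (adjusted p = 0.378). Its difference at 8 months exceeded that at 3 weeks by 0.38 ± 0.11 (adjusted p = 0.023), a call lost without WT 3-week replicate 2 or 3 or SgshKO 3-week replicate 4 (0.35 to 0.38, adjusted p = 0.0532 to 0.0688). This call was also lost with the covariate for sex-linked transcripts (0.34, adjusted p = 0.0555) and with the neutrophil covariate (0.68, adjusted p = 0.0751). With the replicate number as a block it was lost too (0.27, adjusted p = 0.298). On the TPM scale the 8-month difference of Slc11a1 was 0.10 without a call (adjusted p = 0.141), and the median of all genes there was -0.11. Slc40a1 ran from 200.2 to 303 CPM over all 22 libraries, and its differences of -0.13 ± 0.09, 0.10 ± 0.12 and -0.12 ± 0.08 (SE; adjusted p = 0.529, 0.627 and 0.217) passed at no age. With TPM it was called lower at 8 months (-0.26, adjusted p = 0.00807).

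Hfe encodes a partner of the transferrin receptor that restrains iron uptake. It measured 174, 190.3 and 175 CPM in WT and 123, 129, 143 and 131 in SgshKO at 3 weeks, a difference without a call (-0.45 ± 0.18, adjusted p = 0.15). The groups did not overlap, and the difference was called without SgshKO 8-month replicate 2 (-0.47, adjusted p = 0.00576), a library that enters the shared estimate of the spread. At 4 months Hfe measured 171 and 163 CPM in WT and 102 and 69.1 in SgshKO (-0.97 ± 0.25, adjusted p = 0.00677). At 8 months it measured 221, 195, 191 and 249.9 CPM in WT and 67.5 to 156, median 81.3, in SgshKO (-1.24 ± 0.15, adjusted p = 2.89e-07). The groups did not overlap, although SgshKO replicate 2 at 156 CPM stood above the other 6 SgshKO libraries at 67.5 to 86.2. The 4-month call was lost without SgshKO replicate 2 (-0.76, adjusted p = 0.102). With the neutrophil covariate the differences were -0.34 at 4 and -0.74 at 8 months, neither called (adjusted p = 0.959 and 0.375).

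The Hfe difference at 8 months exceeded that at 3 weeks by -0.78 ± 0.24 (SE; adjusted p = 0.0395). This call was lost without any 1 of 12 of the 22 libraries, namely WT 3-week replicates 1 to 3, SgshKO 3-week replicates 2 to 4, WT 8-month replicates 1 and 4, and SgshKO 8-month replicates 1, 4, 5 and 7, with values of -0.83 to -0.71 (adjusted p = 0.0507 to 0.087). It was also lost with a covariate for sex-linked transcripts (-0.71, adjusted p = 0.0774), with the neutrophil covariate (-0.32, adjusted p = 0.921) and with unfiltered TPM (-0.88, adjusted p = 0.0604).

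Tfrc encodes the transferrin receptor, the main port for iron. It measured 30.5, 26.1 and 33.6 CPM in WT and 44.1, 34.5, 30.1 and 37.3 in SgshKO at 3 weeks, 25.8 and 23.5 against 35.2 and 39.8 at 4 months, and 29.5, 20.9, 28.6 and 42.1 against 22.5 to 28.7 at 8 months. None of its differences was called (0.28 ± 0.17, 0.61 ± 0.23 and -0.26 ± 0.14, SE; adjusted p = 0.408, 0.062 and 0.148). The value at 4 months was called without WT 8-month replicate 2 or 4 (0.59 to 0.61, adjusted p = 0.0303 to 0.0314) and in DESeq2 (adjusted p = 0.0458). The value at 8 months was called without WT 8-month replicate 2 (-0.41, adjusted p = 0.0183).

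Ireb2 encodes iron regulatory protein 2, and Ncoa4 the receptor that takes ferritin to the lysosome. Ireb2 measured 153, 129.9, 142 and 150.4 CPM in WT and 94.8 to 128, median 108, in SgshKO at 8 months without overlap (-0.40 ± 0.09, adjusted p = 0.000801). At 3 weeks and 4 months its differences were -0.14 ± 0.11 and -0.19 ± 0.14 (SE), neither of them called, with an adjusted p of 0.395 at 4 months. With the neutrophil covariate the 8-month value was -0.38 without a call (adjusted p = 0.487). Ncoa4 was lower in SgshKO by -0.53 ± 0.24, -0.45 ± 0.33 and -0.39 ± 0.20 at the 3 ages, none of them called (SE; adjusted p = 0.21, 0.387 and 0.127), and the 8-month value was called without WT 8-month replicate 4 (-0.59, adjusted p = 0.0156). The low level of Ncoa4 in this table, and the 17.9% of its 50-base stretches that it shares with a pseudogene, limit what its values show.

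Within SgshKO, 8 of the 10 genes differed between 3 weeks and 8 months, where 15.5% of all genes were called higher and 15.1% lower. The 4 that rose were Fth1 (1.41 ± 0.08, adjusted p = 3.18e-12), Ftl1 (0.78 ± 0.10, adjusted p = 1.92e-06), Slc11a1 (0.49 ± 0.07, adjusted p = 6.11e-06) and Hmox1 (0.50 ± 0.14, adjusted p = 0.00859). The 4 that fell were Tfrc (-0.53 ± 0.14, adjusted p = 0.00419), Hfe (-0.53 ± 0.15, adjusted p = 0.00907), Ireb2 (-0.39 ± 0.09, adjusted p = 0.00144) and Ncoa4 (-0.53 ± 0.20, adjusted p = 0.0455). Neutrophil transcripts differ between the same groups, and with that covariate Hmox1, Tfrc, Hfe, Ireb2 and Ncoa4 lost their calls (adjusted p = 0.245 to 0.957). The Ncoa4 call was also lost without any 1 of 12 libraries (adjusted p = 0.051 to 0.139), with the covariate for sex-linked transcripts (-0.35, adjusted p = 0.305) and with unfiltered TPM (-0.47, adjusted p = 0.0632).

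Within WT, 0 of the 10 genes were called between 3 weeks and 8 months by edgeR and 0 by DESeq2, with 2 (Hmox1 and Ncoa4) at an unadjusted p under 0.05, where 3.02% of all genes were called higher and 4.63% lower. Leaving out WT 8-month replicate 3, 4 or 1 gave a call to Hmox1 (0.57), Slc11a2 (-0.44) or Ncoa4 (-0.86) in turn. Fth1 was 0.11 ± 0.09 higher (adjusted p = 0.554) and Ftl1 -0.03 ± 0.12 (adjusted p = 0.942). Xist exceeded Ddx3y in 3 of 3 WT libraries of 3 weeks and in 0 of 4 of 8 months. Age in WT can therefore not be told apart from this difference. The 2 WT libraries of 4 months, at 665 and 729 CPM, lay above all 7 other WT libraries for Fth1. The same 2 libraries had the highest summed level of 9 dissociation response genes among WT, 17639 and 23126 CPM against 3623 to 8642, and the part of that response was not tested. It was 12875 and 14564 CPM in the SgshKO libraries of that age and 18786 in SgshKO 3-week replicate 1, whose Fth1 of 698 CPM was the lowest of its group.

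A wider list of 60 other iron and heme genes was read in the same fits. Of its 52 members tested, 2 were called higher and 1 lower at 3 weeks (5.31% and 3.72% of all genes), 11 and 4 at 4 months (10.3% and 9.26%), and 21 and 7 at 8 months (21.6% and 18.9%), with medians of 0.03, 0.29 and 0.28 against -0.02, 0.02 and 0.02 over all genes. Slc25a37, which encodes mitoferrin 1, the iron importer of mitochondria, was the gene that fell most at each age. It measured 204 ± 11.9 CPM in SgshKO (SD, n = 4) against 315 ± 9.61 in WT (n = 3) at 3 weeks, and 120 ± 7.05 (n = 7) against 275 ± 15.1 (n = 4) at 8 months. Its log2 differences were -0.63 ± 0.08, -1.21 ± 0.11 and -1.19 ± 0.06 (SE; adjusted p = 5.16e-06, 1.9e-08 and 2.98e-13). At 3 weeks the genes that rose were Hebp1, a heme-binding protein, from 6.37 to 19.98 CPM (1.66 ± 0.19, adjusted p = 1.15e-06), and Mcoln1, a lysosomal cation channel (0.55 ± 0.09, adjusted p = 0.000136).

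At 4 and 8 months the list's largest rises were Ltf, Lcn2 and Hp, which encode lactoferrin, lipocalin 2 and haptoglobin. They measured 1459, 616 and 59.5 CPM on average in SgshKO at 4 months and 297, 126 and 20.3 at 8 months, against at most 0.709 in WT. Ltf and Lcn2 are also on the neutrophil marker list above. Besides Slc25a37, the genes that fell were Uros (-0.91 ± 0.27, adjusted p = 0.0174) and Slc46a1 (-0.48 ± 0.14, adjusted p = 0.0125) at 4 months, and Slc39a14 (-0.58 ± 0.21, adjusted p = 0.0288) and Ppox (-0.52 ± 0.09, adjusted p = 6.47e-05) at 8 months. Uros and Ppox encode enzymes of heme synthesis, Slc46a1 a heme and folate carrier and Slc39a14 a metal importer. Between 3 weeks and 8 months 14 of the 52 genes rose and 9 fell in SgshKO (15.5% and 15.1% of all genes), among them Slc25a37 (-0.76 ± 0.07, adjusted p = 3.54e-09), the metal importer Slc39a8 (-0.89 ± 0.12, adjusted p = 3.05e-06) and Lrp1, a scavenger receptor (-0.57 ± 0.07, adjusted p = 1.97e-06). In WT 1 rose and 4 fell (3.02% and 4.63% of all genes), among them Hebp1 (1.01 ± 0.19, adjusted p = 0.00103) and Aco1, which encodes iron regulatory protein 1 (-0.36 ± 0.10, adjusted p = 0.0264).

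Over the 22 libraries, log2 CPM of Fth1 and Ftl1 correlated with r = 0.949. Outside the iron genes, those most like Fth1 included Ctss, Prdx1, Kcnj9 and Gpx3 (r = 0.977 to 0.983), and those most like Ftl1 were Akr1a1, Npc2, Aldoa, P3h3 and Ctsz (r = 0.982 to 0.991). Over the 20 WT ASO libraries with grp means removed, Fth1 and Ftl1 correlated with r = 0.962. There Ctss, Capns1, B2m, Tyrobp and Gm2a were most like Fth1 (r = 0.968 to 0.983) and Npc2, Pld3, Pebp1, Psap and Grn most like Ftl1 (r = 0.972 to 0.982). Ctss was thus first for Fth1 in both sets, and Npc2 within the first 2 for Ftl1. The points of each set share group differences and library depth, and these values are a description. The 20 WT ASO libraries include those with the Tfeb ASO and ntc, by which Fth1 and Ftl1 were chosen, so that choice enters their values.

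For WT mice the fit of the ASO libraries included their grp number, shared by 1 library of each treatment, as a block. ntc against PBS called 0 of 10277 genes (0%) in edgeR and 1 in DESeq2, with 415 at an unadjusted p under 0.05. Of the iron genes other than ferritin it called 0, and none of them was at an unadjusted p under 0.05. The ntc libraries entered the choice of Fth1 and Ftl1, whose values are therefore given without a test. Fth1 measured 899, 890.0, 878 and 874 CPM with PBS and 958, 1016, 1014 and 922 with ntc (log2 difference 0.14). These did not overlap, as for 0.915% of all genes. Since the ntc libraries entered the choice of Fth1, nothing is read from this. Ftl1 measured 867, 788, 809 and 805 CPM with PBS and 964, 920.1, 1008 and 792 with ntc, which overlap (log2 difference 0.17).

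The comparisons of the Mitf, Tfeb and Tfe3 ASOs with ntc share the 4 ntc libraries, which entered the choice of the ferritin genes. Fth1 and Ftl1 are therefore given against ntc without a test. The Mitf and Tfe3 ASOs were also set against PBS, whose libraries are not in the Tfeb ASO contrast that picked the ferritin genes. All the iron genes were still chosen with earlier results of these data known. Against PBS, 3 iron genes were called higher and 1 lower with the Mitf ASO, and 2 and 1 with the Tfe3 ASO. Of all genes, 9.25% were called higher and 8.84% lower with the Mitf ASO, and 5.62% and 4.12% with the Tfe3 ASO. Against ntc, of the 8 iron genes other than ferritin, edgeR called 2 higher (Hmox1 and Tfrc) and 1 lower (Hfe) with the Mitf ASO, beside 5.77% and 5.21% of all genes. With the Tfe3 ASO it called 0 of these 8, beside 1.46% and 0.701% of all genes, while Hfe alone was at an unadjusted p under 0.05 and was called by DESeq2 (adjusted p = 0.0187). Libraries of the Mitf ASO did not overlap with PBS for 10.6% of all genes and with ntc for 7.67%, and those of the Tfe3 ASO for 7.84% and 4.68%.

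With the Mitf ASO, Fth1 measured 1885, 1973, 1654 and 1575 CPM and Ftl1 1865, 2002, 1799 and 1572 in grp 1 to 4. Both lay above every PBS library and, as a description only, above every ntc library. Against PBS the log2 differences were 1.0 ± 0.06 for Fth1 (adjusted p = 2.24e-09) and 1.14 ± 0.07 for Ftl1 (SE; adjusted p = 2.52e-09), higher in 4 of 4 grp pairs. Against ntc they were 0.86 and 0.98, given as a description.

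With the Tfe3 ASO, Fth1 measured 1468, 1443, 1489.6 and 1396 CPM and Ftl1 1152, 1155, 1365 and 1073. These too lay above every PBS library and, as a description only, above every ntc library. They lay below every library of the Mitf ASO. Against PBS the log2 differences were 0.71 ± 0.06 for Fth1 (adjusted p = 7.49e-07) and 0.53 ± 0.07 for Ftl1 (SE; adjusted p = 8.3e-05), higher in 4 of 4 pairs. Against ntc they were 0.57 and 0.37, given as a description. The Mitf and Tfe3 ASOs were not tested against each other.

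With the Tfeb ASO, whose contrast with ntc picked the ferritin genes, Fth1 measured 1587, 1469, 1326 and 1476 CPM and Ftl1 1497, 1347, 1300.0 and 1307. Against ntc these are log2 differences of 0.58 for Fth1 and 0.57 for Ftl1, given as a description. The other 8 genes ran from -0.17 for Slc40a1 to 0.19 for Hmox1. Of all genes, 0.564% passed as higher and 0.214% as lower in that contrast, from which nothing is read here.

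**Figure D3:**
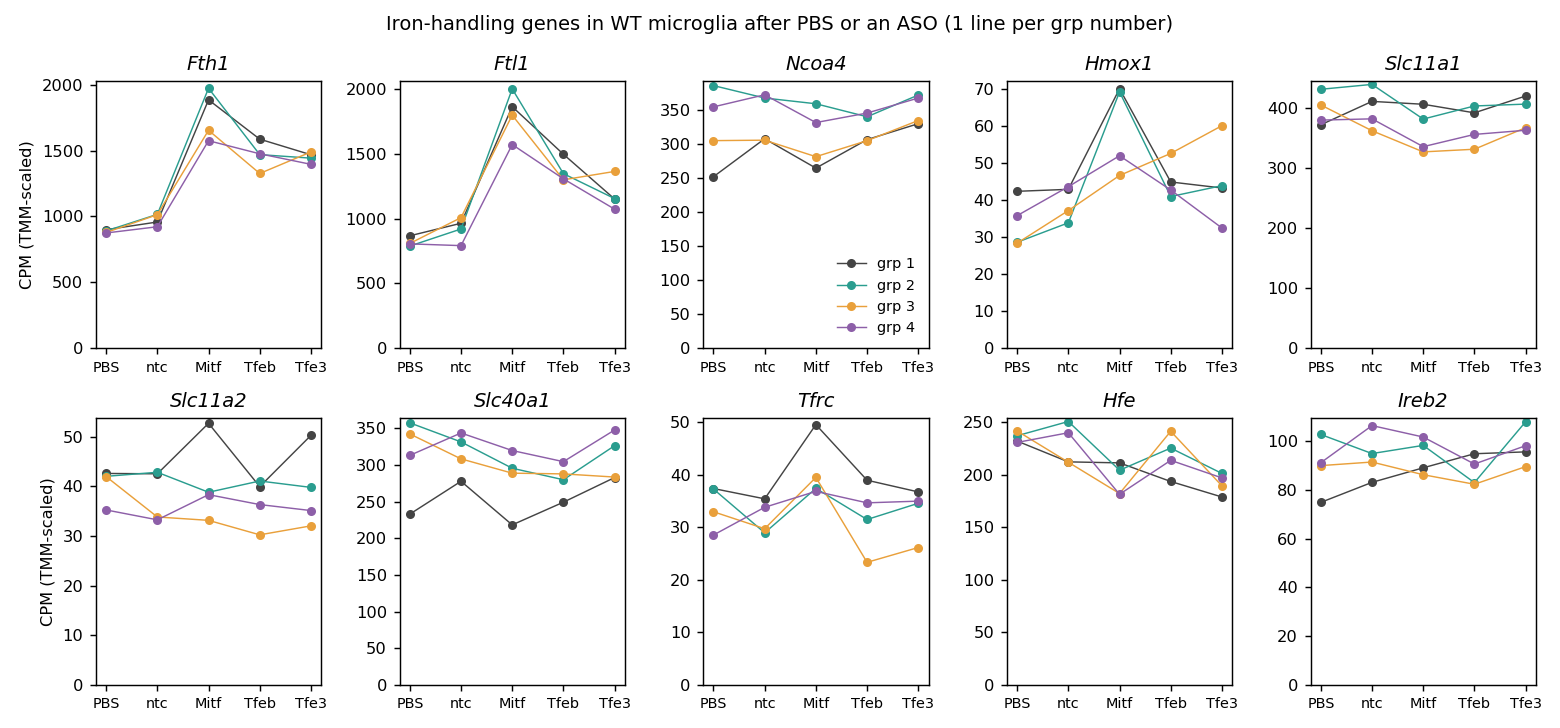
CPM of the 10 iron genes in the 20 WT ASO libraries, with 1 line for each grp number across PBS, ntc and the Mitf, Tfeb and Tfe3 ASOs. Fth1 and Ftl1 are lowest with PBS and ntc and highest with the Mitf ASO, at 1575 to 1973 and 1572 to 2002 CPM.

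Heme oxygenase moved with the Mitf ASO. Hmox1 measured 42.4, 28.6, 28.4 and 35.8 CPM with PBS, 42.9, 33.9, 37.2 and 43.6 with ntc, and 70.1, 69.3, 46.7 and 52.0 with the Mitf ASO. The Mitf ASO lay above both controls in every library (0.82 ± 0.17 against PBS, adjusted p = 0.00205, and 0.59 ± 0.16 against ntc, adjusted p = 0.026). The call against ntc was lost without ntc replicate 1, 2 or 3 or Mitf replicate 1 or 2 (0.46 to 0.59, adjusted p = 0.0715 to 0.119). With the Tfe3 ASO, Hmox1 measured 43.3, 43.9, 60.1 and 32.5 CPM, which overlaps both controls (0.41 ± 0.17 against PBS, adjusted p = 0.127).

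Hfe went the other way. It measured 232, 237, 242 and 231 CPM with PBS, 212, 251, 212 and 239.8 with ntc, 211, 204, 182 and 181 with the Mitf ASO and 179, 201, 189 and 197 with the Tfe3 ASO. Both ASOs lay below every PBS and ntc library, by -0.27 ± 0.07 (adjusted p = 0.00825) and -0.30 ± 0.07 (SE; adjusted p = 0.00919) against PBS. Against ntc the differences were -0.23 ± 0.07 (adjusted p = 0.0339) and -0.26 ± 0.07 (adjusted p = 0.0538). The Mitf value against ntc lost its call without ntc replicate 1, 2 or 4 or Mitf replicate 2, 3 or 4 (-0.24 to -0.19, adjusted p = 0.0599 to 0.123), and the Tfe3 value gained one without PBS, Mitf or Tfeb replicate 1 or Tfeb replicate 3 (adjusted p = 0.0297 to 0.0478). The Tfe3 value against PBS lost its call on the batch-corrected signal (-0.25, adjusted p = 0.0569).

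Beyond Fth1, Ftl1, Hmox1 and Hfe, Tfrc was called with the Mitf ASO against ntc. It measured 49.5, 37.4, 39.5 and 36.8 CPM with the Mitf ASO against 35.4, 28.9, 29.7 and 33.8 (0.35 ± 0.10, adjusted p = 0.0369), and against PBS it was 0.26 ± 0.10 without a call (adjusted p = 0.0927). The call was lost without any 1 of the ntc libraries or Mitf replicate 1 or 3 (0.29 to 0.39, adjusted p = 0.0507 to 0.125). Slc40a1, Slc11a1, Slc11a2, Ncoa4 and Ireb2 passed in none of the tested WT ASO comparisons with all libraries. Without PBS replicate 1, Slc40a1 (-0.21, adjusted p = 0.0366) and Slc11a1 (-0.20, adjusted p = 0.00564) were called lower with the Mitf ASO against PBS, and Slc11a1 also against ntc (-0.14, adjusted p = 0.0342). On the batch-corrected signal Slc11a1 was called lower with the Mitf ASO against PBS with all libraries (-0.20, adjusted p = 0.0218).

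None of the 8 neutrophil markers is listed in the WT ASO table, from which genes of low count had been removed before deposit. Of the 6 border macrophage markers only Mrc1 is listed there, at 28.6 to 33.7 CPM in PBS libraries and 28.9 to 49.3 in ntc libraries. The Mitf ASO had it at 39.1 to 56.2 CPM and the Tfe3 ASO at 29.8 to 37.8, and its part was not tested. The microglial marker sum was 64436 to 69178 CPM with PBS and 63567 to 66986 with the Mitf ASO. Of 37 wider iron and heme genes tested, 5 were called higher and 1 lower with the Mitf ASO against PBS (9.25% and 8.84% of all genes), and 1 and 3 with the Tfe3 ASO (5.62% and 4.12%). Slc25a37 was the 1 that fell with the Mitf ASO, from 39.2 ± 1.80 to 31.4 ± 1.59 CPM (SD, n = 4; log2 difference -0.32 ± 0.06, adjusted p = 0.000658). It also fell with the Tfe3 ASO (-0.23 ± 0.06, adjusted p = 0.0148), beside Mcoln1 (-0.28 ± 0.07, adjusted p = 0.0161) and Steap3, an endosomal ferrireductase (-0.86 ± 0.13, adjusted p = 0.000738). Hebp1 rose with the Mitf ASO (0.77 ± 0.10, adjusted p = 5.27e-05), as did Uros (0.46 ± 0.12, adjusted p = 0.0149) and Slc25a39 (0.29 ± 0.07, adjusted p = 0.00506), which encodes a mitochondrial carrier and also rose with the Tfe3 ASO (0.22 ± 0.07, adjusted p = 0.0431).

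In SgshKO mice the Mitf plus Tfe3 combination called 2 iron genes higher and 1 lower against ntc, where 4.84% of 10589 genes were called higher and 4.50% lower. Fth1 ran from 1882 over a median of 1978 to 2091 CPM with ntc and from 2074 over 2261 to 2676 with the combination. The ranges overlap between 2074 and 2091 CPM only, and within grp 1 (1959 to 2091 against 2292 to 2676) and within grp 2 (1882 to 2053 against 2074 to 2229) they did not. The fitted rise was 0.23 ± 0.04 (SE; adjusted p = 0.00155), and the difference of means was 0.30 in grp 1 and 0.15 in grp 2. Ftl1 ran from 1553 over 1784 to 1854 CPM with ntc and from 1788 over 2019 to 2238 with the combination (0.22 ± 0.05, adjusted p = 0.0136). Its difference was 0.35 in grp 1, without overlap, and 0.08 in grp 2, where the groups overlapped. Whether the effect differed between grp 1 and grp 2 was not tested.

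**Figure D4:**
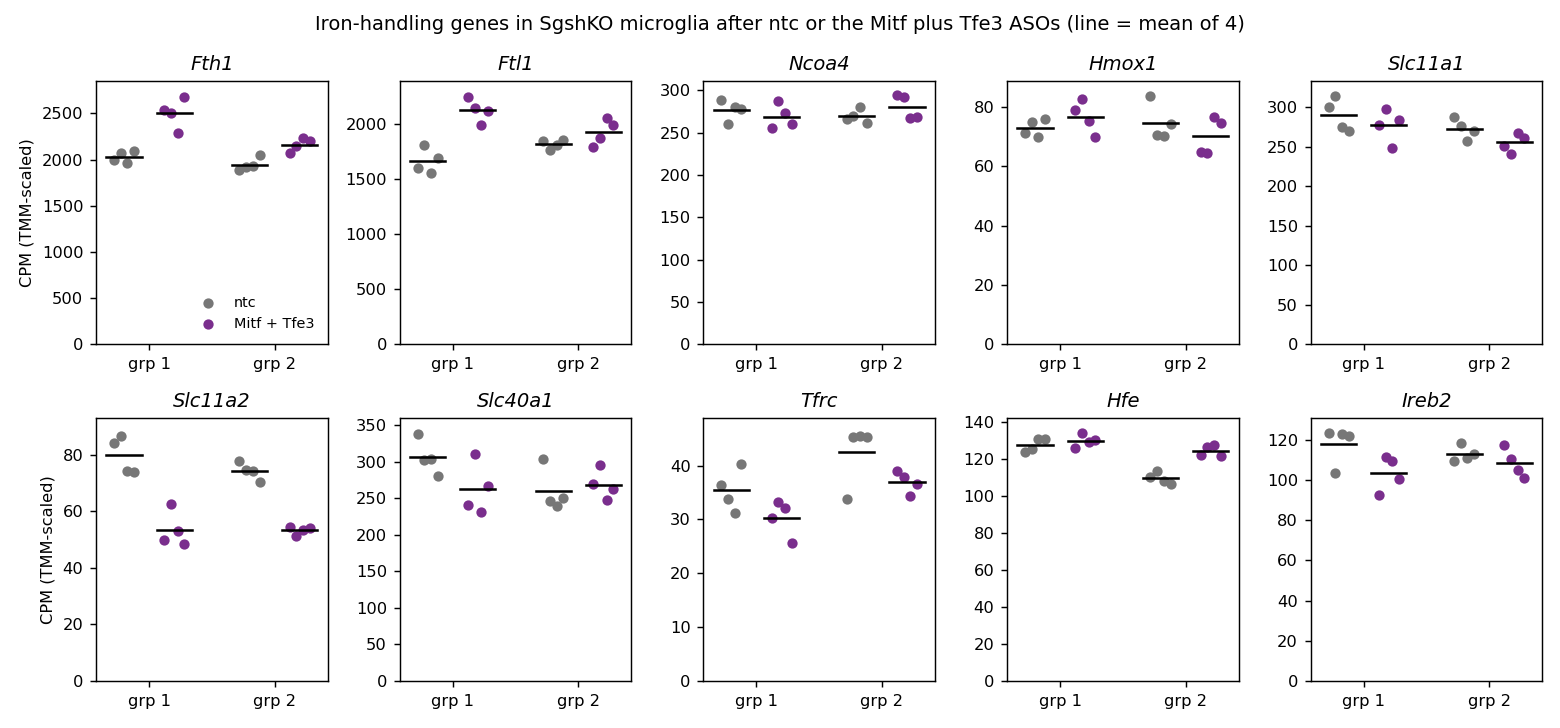
CPM of the 10 iron genes in the 16 SgshKO ASO libraries, split by grp, with ntc in grey, the Mitf plus Tfe3 combination in purple and the mean of 4 libraries as a line. Slc11a2 separates fully in both grp sets, at 48.4 to 62.7 against 70.4 to 86.8 CPM.

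Slc11a2, the endosomal iron transporter, fell with the combination. It ran from 70.4 over 74.4 to 86.8 CPM with ntc and from 48.4 over 53.2 to 62.7 with the combination, with no overlap, as for 1.06% of all genes (-0.53 ± 0.05, adjusted p = 1.19e-05). The difference was -0.58 in grp 1 and -0.47 in grp 2. In WT mice neither single ASO called Slc11a2 (Mitf against ntc 0.09 ± 0.09, adjusted p = 0.587, and Tfe3 against ntc 0.04 ± 0.09, adjusted p = 0.885). The WT and SgshKO sets were not tested against each other.

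The other 7 iron genes were not called with the combination in edgeR. Hfe was 0.11 ± 0.04 (adjusted p = 0.0721), Tfrc -0.21 ± 0.07 (adjusted p = 0.071), Ireb2 -0.12 ± 0.05 (adjusted p = 0.137), Slc40a1 -0.09 ± 0.07 (adjusted p = 0.488) and Slc11a1 -0.08 ± 0.04 (SE; adjusted p = 0.272). DESeq2 called Hfe (adjusted p = 0.0264) and Tfrc (adjusted p = 0.0492), and edgeR called Tfrc without ntc replicate 1 of grp 2 (-0.26, adjusted p = 0.021). Hmox1, at 69.9 to 83.6 CPM with ntc and 64.5 to 82.6 with the combination, was -0.01 ± 0.05 (adjusted p = 0.934), and Ncoa4 was 0.01 ± 0.04 (adjusted p = 0.921). Neutrophil markers, 6 of 8 listed, summed to 1.03 to 564 CPM with ntc, against 0.996 to 358 with Mitf plus Tfe3 ASO. Mrc1, the only border macrophage marker listed, ran from 116 to 183 CPM with ntc and from 155 to 195 with the combination. Within grp 1 it was 116 to 150 CPM against 155 to 182 without overlap, and within grp 2 157 to 183 against 182 to 195, and its part in the differences was not tested. Of 46 wider iron and heme genes, beside 4.84% of all genes called higher and 4.50% lower, 1 was called higher, Trf, which encodes transferrin from 667 to 1023 CPM (0.64 ± 0.08, adjusted p = 0.000132), and 2 lower, Mcoln1 (-0.20 ± 0.05, adjusted p = 0.0183) and Alas1, the first enzyme of heme synthesis (-0.16 ± 0.03, adjusted p = 0.00737). Oligodendrocytes also express Trf, and the 4 of their 7 markers that are listed summed to 77.6 to 95.0 CPM with ntc and 85.0 to 102 with the combination.

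**Figure D5:**
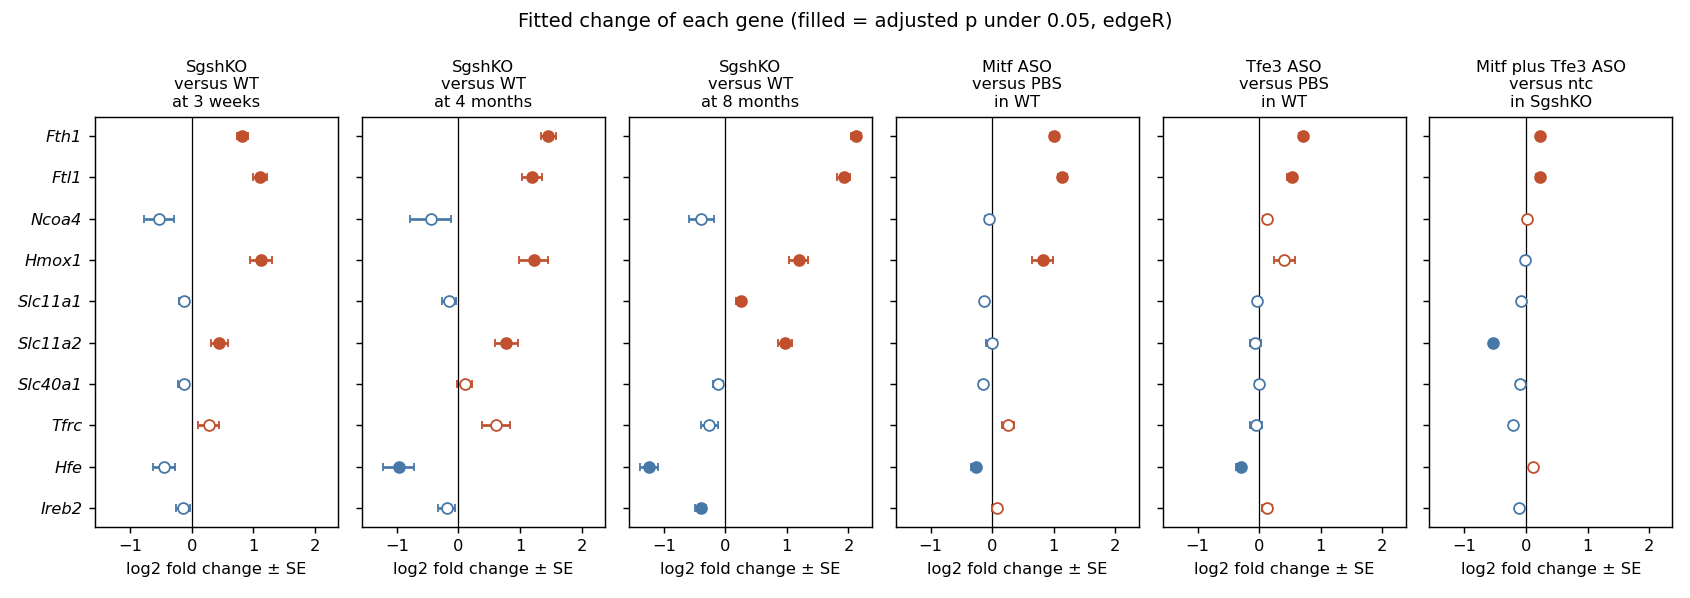
Fitted log2 difference ± SE of the 10 iron genes in 6 comparisons, with filled points for an adjusted p under 0.05 in edgeR, red above 0 and blue below. Fth1 and Ftl1 are filled and above 0 in all 6, from 0.22 for Ftl1 with the combination in SgshKO to 2.12 for Fth1 at 8 months, and Hfe is filled and below 0 in 4.

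The ASO tables list Ftl1-ps1, a near copy of Ftl1, apart from it. Its counts were 0.315% to 2.90% of those of Ftl1 over the 36 ASO libraries. It was called higher with the Mitf ASO against PBS (0.99 ± 0.19, adjusted p = 0.00138) and not with the Tfe3 ASO (0.54 ± 0.19, adjusted p = 0.0856). Of the 10 genes, 7 have a promoter in the RefSeq table (GRCm38.p6, 250 bases before to 50 after the start). The letters CACGTG, the E-box core that MITF, TFEB and TFE3 are known to bind, were in 0 of these 7 windows on either strand and in 8.09% of all 27025 promoters of that length.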

How the data were processed

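RNA was measured in 58 libraries of sorted microglia. The authors deposited raw counts for the age series and for the WT and SgshKO ASO sets, TPM for the age series, and normalised, batch-corrected signal for both ASO sets, whose method is not given in the sources used here. The submitters' processing notes name mm10, STAR 2.5.3a, kallisto 0.44.0, HOMER 4.11, DESeq2 1.36.0 and R 4.2.3, without their roles. Library totals are given with the results, and precision is that of the replicate spread in the fits.

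Each count table was fitted once in edgeR 4.0.16 (R 4.3.3) with TMM factors, filterByExpr at a minimum count of 10 and the quasi-likelihood F test, with Benjamini-Hochberg adjustment over all genes tested and a threshold of 0.05. SE is the log2 difference divided by the square root of F. The WT ASO fit held the grp number as a block and the SgshKO ASO fit the grp number. Deviations of same-numbered WT ASO libraries correlated in the treatments compared (r = 0.122 to 0.640), so those numbers were taken as pairs. Over all 40 same-numbered pairs, those of treatments not compared included, r was -0.033 to 0.640. The title of PBS replicate 4 gives grp 4, used here, and its column name grp 3, and its mean r was 0.429 with grp 4 and 0.188 with grp 3. Alternatives were RLE factors, DESeq2 1.42.0, no filter, limma 3.58.1 on log2 of TPM or signal with a pseudocount of 1 or 0.1, each library left out, another block, and covariates for sex-linked transcripts and neutrophil markers. Columns not mapped to a sample numbered 0. The code was tested on simulated data.

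Genes named are the 10 iron genes, Sgsh, Mitf, Tfeb and Tfe3 as label checks, of a wider list of 60 iron and heme genes the 3 called with the largest rise and the 3 with the largest fall per comparison, and the 5 genes most correlated with Fth1 or Ftl1, of which 1 is not reported here. The 10 genes, the wider list and the marker lists were chosen with earlier results of these data known.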

Additional observations from a re-analysis of the deposited data

Results flagged for a closer look

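Among 100 groups of 4 to 10 libraries examined for the 10 genes, 4 held a library far from the others, and chance gives about 1 in 20. Hfe was 155.7 CPM in SgshKO 8-month replicate 2 and 67.5 to 86.2 in the other 6 libraries. Slc11a2 was 35.3 CPM in PBS replicate 4 and 42.0 to 42.6 in the other 3. Hmox1 was 83.6 CPM in SgshKO ntc replicate 1 of grp 2 and 69.9 to 76.0 in the other 7. Slc11a2 was 62.7 CPM in replicate 2 of grp 1 with the combination in SgshKO and 48.4 to 54.6 in the other 7.

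The genotype difference itself differed between ages in 6 tests. Fth1 differed by 0.64 on the log2 scale between 3 weeks and 4 months, by 1.30 between 3 weeks and 8 months and by 0.66 between 4 and 8 months. Between 3 weeks and 8 months Ftl1 differed by 0.81, Slc11a1 by 0.38 and Hfe by -0.78.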

How the results depend on the processing

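No value changed sign while called, and 140 of 4300 alternatives for single genes moved a value across the threshold. The 4300 include those for the Tfeb ASO against ntc, which has no test here and so could not cross it. They also include those of Fth1 and Ftl1 for the other ASOs against ntc, given above without a test. The number of the 10 genes called for the genotype difference of 8 against 4 months (1 with all settings as reported) was 2 with DESeq2 and 2 with no filter, and 0 with TPM at a pseudocount of 0.1, 0 with unfiltered TPM and 0 with the neutrophil covariate. For 4 months against 3 weeks (1) it was 0 with the neutrophil covariate. For 8 months against 3 weeks (4) it was 2 with the sex-linked covariate and 2 with the neutrophil covariate. At 4 months (5) and for age in SgshKO (8) the neutrophil covariate left 2 and 3. DESeq2 called 5 with the combination (3).

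The replicate numbers of the age series do not pair the libraries (r = -0.171 to 0.115). In the SgshKO ASO set r was 0.0880 to 0.612 in grp 1 and 0.0839 to 0.156 in grp 2. These numbers were not taken as pairs in the main fit, although the ranges overlap with that of the WT ASO set. With the replicate block the called number was 0 for 4 months against 3 weeks (Fth1 0.65, adjusted p = 0.12), 2 for 8 months against 3 weeks and 0 for 8 against 4 months (Fth1 0.64, adjusted p = 0.323), and Slc11a2 at 3 weeks (0.43, adjusted p = 0.132) and Slc11a1 at 8 months (0.15, adjusted p = 0.205) were not called. Without the block in the WT ASO set, Hmox1 lost its call for Mitf against ntc (0.59, adjusted p = 0.0835). So did Tfrc (0.35, adjusted p = 0.268) and Hfe (-0.23, adjusted p = 0.141). For Tfe3 against PBS, Hfe lost its call (-0.30, adjusted p = 0.0625). No paired fit was made for age within a genotype, since the block was set within an age. Putting PBS replicate 4 in grp 3, and a block of grp and replicate number in the SgshKO ASO set, changed no call of the 10 genes.

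With each library left out in turn, the called number was 3 to 4 at 3 weeks and 3 to 6 at 4 months. At 8 months it was 7 to 8. It was 0 to 1 for the difference of 4 months against 3 weeks, and 2 to 5 for 8 months against 3 weeks. For 8 against 4 months it was 0 to 2. For age it was 0 to 1 in WT and 7 to 8 in SgshKO. Against PBS it was 4 to 6 for the Mitf and 3 to 3 for the Tfe3 ASO, and it was 3 to 4 with the combination. Counts against ntc in WT are left out, since they would include Fth1 and Ftl1.

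The counts called over all genes moved by over 1.5 times in several settings. For 4 months against 3 weeks, 361 became 685 with DESeq2, 683 with TPM and 176 with the block. For 8 against 4 months, 56 became 163 with DESeq2, 131 with no filter, 270 with unfiltered TPM and 8 with the block. The block gave 764 in place of 1323 for 8 months against 3 weeks and 803 in place of 1292 at 3 weeks. For age in WT, 1094 became 469 with the sex-linked covariate. Without the block, the Mitf and Tfe3 ASOs gave 211 and 29 against ntc in place of 1128 and 222. Against PBS they gave 535 and 114 in place of 1860 and 1001. DESeq2 gave 403 for Tfe3 against ntc in place of 222. With no grp term in SgshKO, 988 became 452. The neutrophil covariate left 1, 132 and 26 calls in the tests between ages and 356 for age in SgshKO. There were 2 libraries per genotype at 4 months.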
